A study of Mus musculus with 14 samples.

Results

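The nuclear factor I (NFI) loci are the 4 mouse genes Nfia, Nfib, Nfic and Nfix with 500 kb of DNA on each side of each gene body. Their members were chosen by position: every open chromatin peak whose interval touched one of these 4 windows was taken and given to its nearest NFI gene. Overlapping or touching peaks of all lists were merged into regions, and 353 of 108795 regions in the genome were members, 82 at Nfia, 78 at Nfib, 97 at Nfic and 96 at Nfix. The family had been picked with results of these data known, and presence of a peak is what the selection used, so the values below are descriptions.

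DNA accessibility had been profiled by bulk ATAC-seq, in which a transposase marks open DNA. The cells were 4T1, a line from a mouse mammary tumor, so 1 tumor model stands behind all values. The 14 samples were cultures in normoxia, with 2 replicates, and cultures given 1% oxygen, which lasted 6, 12, 24, 36, 48 or 72 h with 2 replicates each. The labels give normoxia no oxygen level of its own, and the treatment text attached to these samples describes the low oxygen cultures. In the paper, a figure legend on protein staining gives control 4T1 cells an oxygen level above 1% but below that of air. The samples were used as labelled, as controls, and normoxia is a group name here and not ambient oxygen. No group carried another allele or agent, and the time course asked how low oxygen alone alters open chromatin. The authors called peaks on the pooled reads of both replicates, so each of the 7 lists is 1 measurement with no replicate error, and no difference between lists could be tested. In bulk cells, a site open in more cells and a site cut more often in each cell cannot be told apart.

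The NFI proteins are transcription factors that share a DNA-binding domain and bind as dimers to a palindrome made of TTGGC, 5 bases and GCCAA, or more weakly to a single TTGGC. They can activate or repress genes. In the mammary gland they are known for acting with STAT5 and the glucocorticoid receptor at milk protein genes, NFIB is known from lung development and from the metastasis of small cell lung cancer, and NFIA is a known switch to glial fate in the nervous system.

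In each locus the regions were numbered from the lowest to the highest coordinate, and 6 of them are shown here because the results turn on them. Each line gives the reference strand of NCBIM37, the assembly of mm9, from 100 bases before to 100 bases after the summit, and capitals mark a single NFI site (TTGGCA on either strand) or an AP-1 site (TGANTCA). The first is the strongest promoter region of the family, the next 2 lie before Nfia, the following 2 lie beyond the 3' end of Nfib, and the last is a promoter region of Nfix.
Nfia_27, chr4:97438891-97439091: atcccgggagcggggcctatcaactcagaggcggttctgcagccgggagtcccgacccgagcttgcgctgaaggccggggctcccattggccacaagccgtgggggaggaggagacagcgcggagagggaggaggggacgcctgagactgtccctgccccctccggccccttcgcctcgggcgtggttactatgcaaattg
Nfia_15, chr4:97288555-97288755: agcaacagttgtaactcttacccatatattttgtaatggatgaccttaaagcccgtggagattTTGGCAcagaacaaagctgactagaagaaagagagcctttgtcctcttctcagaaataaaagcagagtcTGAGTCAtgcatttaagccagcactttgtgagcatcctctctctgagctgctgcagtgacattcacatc
Nfia_18, chr4:97356170-97356370: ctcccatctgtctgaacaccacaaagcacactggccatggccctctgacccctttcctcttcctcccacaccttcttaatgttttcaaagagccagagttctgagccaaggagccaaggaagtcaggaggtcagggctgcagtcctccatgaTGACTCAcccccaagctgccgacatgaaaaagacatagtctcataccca
Nfib_16, chr4:81711659-81711859: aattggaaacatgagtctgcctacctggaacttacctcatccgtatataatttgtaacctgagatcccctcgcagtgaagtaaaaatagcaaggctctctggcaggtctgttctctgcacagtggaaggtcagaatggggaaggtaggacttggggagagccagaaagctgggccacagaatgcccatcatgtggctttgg
Nfib_20, chr4:81832076-81832276: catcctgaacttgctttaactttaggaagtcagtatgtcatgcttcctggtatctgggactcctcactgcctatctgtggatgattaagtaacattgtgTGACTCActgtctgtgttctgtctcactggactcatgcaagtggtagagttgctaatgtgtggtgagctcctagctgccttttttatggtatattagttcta
Nfix_44, chr8:87298420-87298620: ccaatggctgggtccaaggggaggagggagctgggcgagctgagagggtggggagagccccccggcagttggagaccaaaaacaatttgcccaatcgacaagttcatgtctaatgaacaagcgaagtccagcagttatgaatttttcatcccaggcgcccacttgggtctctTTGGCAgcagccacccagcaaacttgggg
The single NFI site in the form TTGGCA was found in Nfia_15, from 37 to 32 bases before the summit, and in Nfix_44, from 72 to 77 bases after it. An AP-1 site lay across the summit of Nfib_20 and within 58 bases of the summit in Nfia_15 and Nfia_18. Nfia_27 and Nfib_16 held no match to these 2 motifs in the window, which says only that those letters are not there. The shorter TTGGC was not marked, and on one strand or the other it occurs in the printed windows of Nfia_27 and Nfia_18.

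The 4 loci differ in size and in the genes around them. Nfia (chromosome 4, 97439425 to 97868605, plus strand) and Nfib (chromosome 4, 81936077 to 82351654, minus strand) are long genes of 429 and 416 kb with 3 other protein-coding genes each in their windows. Nfix (chromosome 8, 87223775 to 87324243, minus strand) is 100 kb long with 39 other coding genes around it, and Nfic (chromosome 10, 80858931 to 80893750, minus strand) is 34.8 kb long with 51. The windows held 5.74 regions per 100 kb at Nfia, 5.51 at Nfib, 9.37 at Nfic and 8.72 at Nfix, beside a median of 5.49 over 22367 protein-coding genes with windows made the same way. The long genes therefore sat near the median and the short ones among the genes with dense surroundings. Inside the gene bodies the density was 7.22 regions per 100 kb for Nfia, 9.14 for Nfib, 23.0 for Nfic and 17.9 for Nfix, beside a median of 4.53 over the 2401 coding genes of at least 100 kb, a class to which Nfic does not belong.

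Of the 353 regions, 13 lay within 1 kb of an annotated start of their NFI gene, called its promoter here, 83 lay elsewhere inside the NFI gene, 93 at the promoter of another coding gene, 70 inside another gene and 94 between genes. The summits of the 83 regions inside the genes fell in introns 81 times and in exons 2 times. Regions at promoters of neighbouring genes were the most often shared by all lists, 55 of 93 (59.1%), whereas 20 of the 83 regions inside the NFI genes (24.1%) and 3 of the 13 NFI promoter regions (23.1%) were found in all 7 lists. Over all regions of the genome the share was 33.2%. No genome share by class is given here, so these values do not show a trait of the NFI genes. At the edge of the selection, the outermost member lay 499037 bp from the Nfia gene body, 477586 bp from Nfib, 494881 bp from Nfic and 498885 bp from Nfix. The nearest regions left out lay 500668, 509070, 539552 and 501045 bp away, in the same order.

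**Figure D1:**
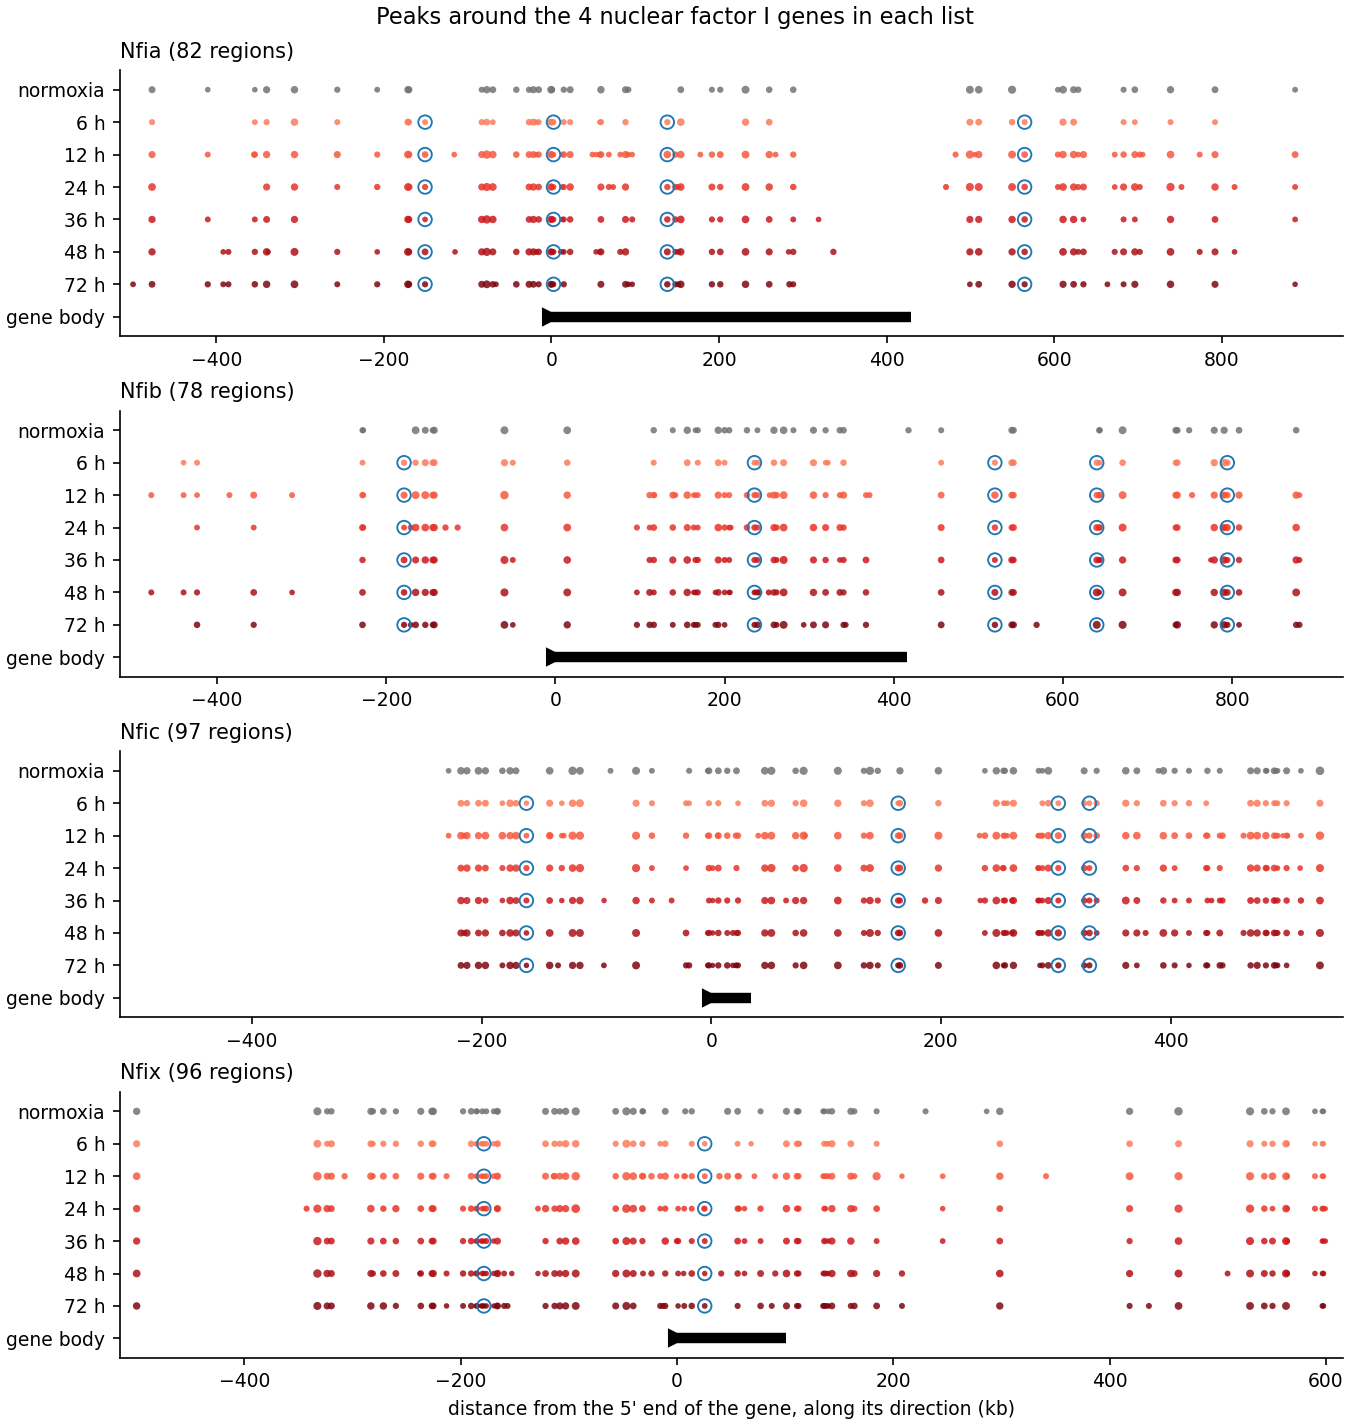
Positions of all peaks of the 4 NFI loci (distance from the 5' end of the gene in kb, along its direction) in each of the 7 lists (rows), with normoxia in grey, hypoxia times in red and the gene body in black. Point area grows with the square root of the deposited fold enrichment, and blue circles mark the 15 regions present in every hypoxia list but absent in normoxia, which are spread over all 4 loci.

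With the 1 kb limit and the full lists, promoter peaks separated the family into Nfia and Nfib on one side and Nfic and Nfix on the other. Every list had a peak at the promoters of Nfia and Nfib, which holds for 46.7% of 22238 protein-coding genes. The promoters of Nfic and Nfix were called in each hypoxia list and lacked a peak in normoxia, a pattern found for 99 coding genes (0.445%). The Nfic and Nfix peaks were weak for promoters, and that pattern held for neither gene when a -log10 q of at least 5 was required. Each gene then kept a peak in 4 hypoxia lists and had none in normoxia. The pattern so rests on weaker peaks in the other lists. Their -log10 q was 3.71 and 4.60 for Nfic at 6 and 24 h, and 3.48 and 4.01 for Nfix at 6 and 48 h. For Nfic it also rests on the 1 kb limit, since a normoxia peak with a -log10 q of 11.7 and 21 summit reads lay 1176 bp from an annotated start. The nearest normoxia peak to an Nfix start was 7244 bp away, with a -log10 q of 5.87.

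At Nfia the peak just before the first annotated start, Nfia_27, was the strongest promoter region of the family. Summit reads, the number of reads over the summit recovered from the peak statistics, were 88 in normoxia and 79, 135, 123, 95, 123 and 96 in the hypoxia lists, ordered by time. To set lists of different depth side by side, reads were divided by the median summit reads of the list over regions found in all 7 lists, which gave 3.38 in normoxia and 2.55, 2.60, 3.08, 2.79, 2.67 and 2.74 in the hypoxia lists. Normoxia was the highest of the 7, and the 95% Poisson intervals of every hypoxia value, such as 2.02 to 3.18 at 6 h, overlapped that of normoxia, 2.71 to 4.17. The deposited fold enrichment, a ratio to the local background within the list, was 10.3 in normoxia and 7.69, 9.07, 9.23, 9.23, 7.77 and 7.12 in hypoxia. In every list Nfia stood above 87.6% or more of the 10393 genes whose promoter was open in every list. The share was 90.2% in normoxia and 92.9% at 24 h. The median scaled value of these genes was also highest in normoxia, at 1.42, against 1.26 to 1.41 in hypoxia. A further region at the same start, Nfia_28, was also in all 7 lists, with a fold enrichment of 6.01 in normoxia and 4.09 to 5.01 in hypoxia. Intervals of this kind cover counting error only.

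Most Nfia transcripts begin elsewhere. The group of starts from 97444299 to 97444595, with 9 of the 12 transcripts, had no peak within 1 kb in any list. An internal noncoding start at 97577724 had the region Nfia_44 (chr4:97577336-97578000), which was absent in normoxia. From 6 to 72 h it had a fold enrichment of 4.47, 9.90, 4.92, 5.28, 7.39 and 5.31. This fold was highest at 12 h and next at 48 h, the lists with the most peaks, and lowest at 6 h, the list with the fewest. The scaled reads of Nfia_44 ran otherwise, with 0.581, 0.712, 0.325, 0.471, 0.543 and 0.514 by time. On them 12 h was again the highest, but 6 h came next and 24 h was the lowest.

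Nfib was open at its main group of starts, from 82151212 to 82151683, which serves 13 of its 15 transcripts. The region there, Nfib_47 (chr4:82151329-82152990), had 38 summit reads in normoxia and 32, 54, 49, 38, 37 and 29 in the hypoxia lists. On the scaled reads it was 1.46 in normoxia and 1.03, 1.04, 1.23, 1.12, 0.804 and 0.829 in hypoxia, so every hypoxia list was below normoxia and 48 and 72 h were the lowest. The log2 ratio to normoxia was -0.50, -0.49, -0.25 and -0.39 in the first 4 hypoxia lists, with intervals that included 0, and -0.86 (95% interval -1.55 to -0.17) at 48 h and -0.82 (-1.57 to -0.08) at 72 h. These intervals come from the binomial split of the reads of both lists and hold no replicate error. The deposited fold enrichment moved the same way, from 5.56 in normoxia to 3.34 and 3.16 at 48 and 72 h. Over the 10393 promoters open in every list, the median scaled value was also highest in normoxia, at 1.42, against 1.26 to 1.41 in hypoxia. Nfib stood above 51.0% of them in normoxia and above 24.8% to 46.6% in hypoxia. Nfib_47 had the lowest mean log2 ratio, -0.55, among the 26 Nfib regions found in all 7 lists.

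The intron region Nfib_48, 7536 bp before those starts in the gene's direction and inside a longer transcript, carried more signal than the promoter in every list. Its summit reads were 69 in normoxia and 52, 101, 110, 71, 81 and 50 in hypoxia, and its log2 ratio ran from 0.05 at 24 h to -0.89 (-1.45 to -0.35) at 72 h. The start of that longer transcript, at 82351654, had no peak within 1 kb in any list. Around an internal noncoding start at 82145220 the weak regions Nfib_44, Nfib_45 and Nfib_46 gave a peak in 5 lists, all but 6 and 72 h, with at most 29 summit reads. Of them only Nfib_46 had a normoxia peak. Its scaled reads were 0.885 there and 0.375 to 0.558 in the hypoxia lists that had it. Its log2 ratio was -1.24 (-2.28 to -0.24) at 24 h and -1.18 (-2.15 to -0.22) at 48 h, while the intervals at 12 and 36 h included 0.

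Nfic and Nfix had their promoter peaks mainly at internal starts. For Nfic, Nfic_63 (chr10:80870281-80870705) lay on an internal start at 80870386 and was called at 6, 12, 36, 48 and 72 h with a fold enrichment of 3.03, 5.27, 4.77, 4.65 and 3.98. At 24 h the only promoter peak was part of Nfic_70, near the first start, with a fold enrichment of 3.24. The starts from 80889859 to 80889932, which serve 5 of the 8 Nfic transcripts, had no peak within 1 kb in any list. Just outside that limit, Nfic_68 lay 1926 bp from these starts and Nfic_71 lay 1828 bp from the first start. Both regions were found in all 7 lists, normoxia included. For Nfix, Nfix_44 (chr8:87297845-87298787) lay at an internal group of 2 starts and was called in every hypoxia list with 19, 24, 19, 22, 23 and 23 summit reads and a fold enrichment of 2.86 to 3.97. The reads were close to each other at all times, and each list's scaled value, 0.462 to 0.657 for the strongest Nfix promoter peak and 0.525 to 0.743 for Nfic, was under 1. At the first Nfix starts, Nfix_50 was called from 24 to 72 h and Nfix_51 at 12 and 36 h, with at most 19 reads.

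**Figure D2:**
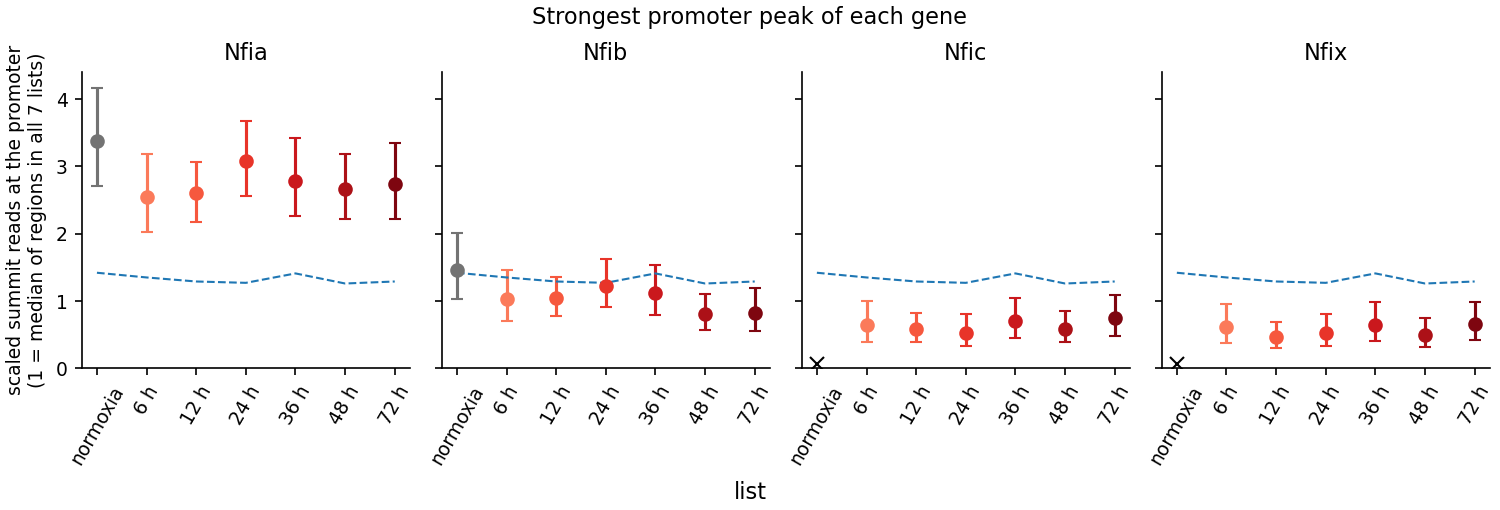
Summit reads of the strongest peak within 1 kb of a start of each NFI gene, divided by the list's median over regions in all 7 lists (y axis), for the 7 lists (x axis), with exact 95% Poisson intervals that cover counting error only; crosses mark lists with no promoter peak and the dashed line is the median of 10393 promoters open in all lists. Nfia lies at 2.55 to 3.38, above the dashed line in every list, while Nfic and Nfix have a cross in normoxia and values of 0.743 or less in hypoxia.

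Because other peaks were also missing in normoxia, whole patterns over the 7 lists were counted. Of the 353 regions, 135 (38.2%) were found in all 7 lists, against 33.2% of all regions of the genome. Every hypoxia list but not normoxia held 15 regions, or 4.25% (exact 95% binomial interval 2.40% to 6.91%), against 1.50% in the genome: 4 at Nfia, 5 at Nfib, 4 at Nfic and 2 at Nfix. The share at the NFI loci was above that of the genome, and its interval, which treats regions as independent although neighbours share a locus, did not reach it. This depended on the 6 h list: without it the share was 5.67% (20 regions, 3.49% to 8.61%) against 3.60% in the genome, which lies inside the interval. Where a -log10 q of at least 5 was required there were 11 such regions among 256, or 4.30% (2.16% to 7.56%), against 1.72% in the genome. With the 20000 strongest peaks of each list there was 1 among 100, or 1.00% (0.0253% to 5.45%), against 1.78%. A share above the genome was also seen for regions missing at 24 h alone, 5 of 353 or 1.42% (0.461% to 3.27%) against 0.256%. A call in normoxia and at no hypoxia time was made for 7 regions (1.98%), 3 at Nfib and 2 each at Nfic and Nfix, against 2.75% in the genome.

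The 15 hypoxia-only regions had a fold enrichment of 2.29 to 12.5, and their positions were mixed. Of them 6 lay between genes, 4 at promoters of neighbouring genes, 3 inside genes and 2 at NFI promoters, Nfia_44 and Nfix_44. The start at Nfia_44 is noncoding. From the scaled hypoxia reads, 7.62 to 34.6 reads would be expected at the 15 regions in normoxia. The regions were chosen for their hypoxia calls, so this expectation is biased upward and cannot show that normoxia should have had a call. The weakest called normoxia peak had 5 reads, on the lowest background of that list. Where the local background is higher, a call needs more reads. A peak list cannot show how many reads normoxia had at these sites. Its nearest normoxia peaks were 697 to 18766 bp away, and 3 of the 15 regions had one within 2 kb: Nfia_29, Nfic_51 and Nfix_75.

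The strongest of these regions was Nfib_16 (chr4:81711452-81712165), 433461 bp from the nearest Nfib start and beyond the 3' end of the gene, where its summit fell in exons of the noncoding genes Gm11264 and Gm5860. From 6 to 72 h it had 21, 23, 29, 26, 56 and 59 summit reads. Scaled for depth these were 0.677, 0.442, 0.725, 0.765, 1.22 and 1.69, so both late lists stood above the 4 earlier ones. The fold enrichment was 5.17, 5.31, 7.04, 6.37, 11.9 and 12.5, and the 6 h peak had a -log10 q of 8.65, compared with 42.1 and 45.3 in the 48 and 72 h lists. At the mean scaled level of the 6 hypoxia lists 23.9 reads would be expected in normoxia, an expectation with the same upward bias.

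The time of the highest fold enrichment varied among the regions of this pattern. Nfib_20 (chr4:81831898-81832403), with the AP-1 site shown above, had a fold enrichment of 4.23, 9.28, 5.27, 3.73, 7.39 and 5.11 from 6 to 72 h, highest at 12 h. Nfib_4 (chr4:81557159-81557706) was highest at 24 h, with 7.61, and Nfia_15 (chr4:97288399-97288863), with its single NFI site, at 48 h, with 6.82. Nfic_31 (chr10:80591279-80592435), 6456 bp from a start of Zbtb7a, a zinc finger repressor gene, and Nfic_29 (chr10:80564154-80564589), near Creb3l3, were both highest at 48 h, with 8.24 and 5.88. Over the 15 regions the highest fold came at 12 h in 4 and also at 24 h in 4, at 48 h in 3 and at 6 h in 2. It came at 36 h in 1 and at 72 h in 1, that of Nfib_16.

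The remaining named cases lay beside normoxia peaks or on high background. Nfic_51 covered the promoter of Apba3, an adaptor protein gene, 920 bp from a normoxia peak, with a fold enrichment of 3.02 to 6.91. Nfix_75 lay at the promoter of Junb, which encodes an AP-1 subunit, 697 bp from the region Nfix_76 of the same promoter that was in all 7 lists. Its fold enrichment was only 2.29 to 2.93 with 35 to 59 reads over a local background of 13.7 to 23.0 reads. Nfia_29, 2391 bp before the main Nfia starts, likewise had 43 to 67 reads over a local background of 10.2 to 17.6 reads and a fold enrichment of 2.89 to 3.94. Its scaled reads were 1.39, 0.962, 1.38, 1.26, 1.46 and 1.54 by time. The 48 and 72 h lists were the highest on this scale, with 6 and 24 h close below. The fold enrichment was instead highest at 6 h, with 3.94. A late rise like that of Nfib_16 was therefore not seen on both measures.

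The regions called in normoxia alone were weak. The strongest, Nfib_22 (chr4:81934154-81934432), just beyond the 3' end of Nfib, had 9 reads and a -log10 q of 4.60, followed by Nfib_10 with 8 reads and 4.04. The rest, Nfib_32, Nfic_78, Nfic_24, Nfix_18 and Nfix_16, had 5 to 7 reads and a -log10 q of 1.43 to 3.11.

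**Figure D3:**
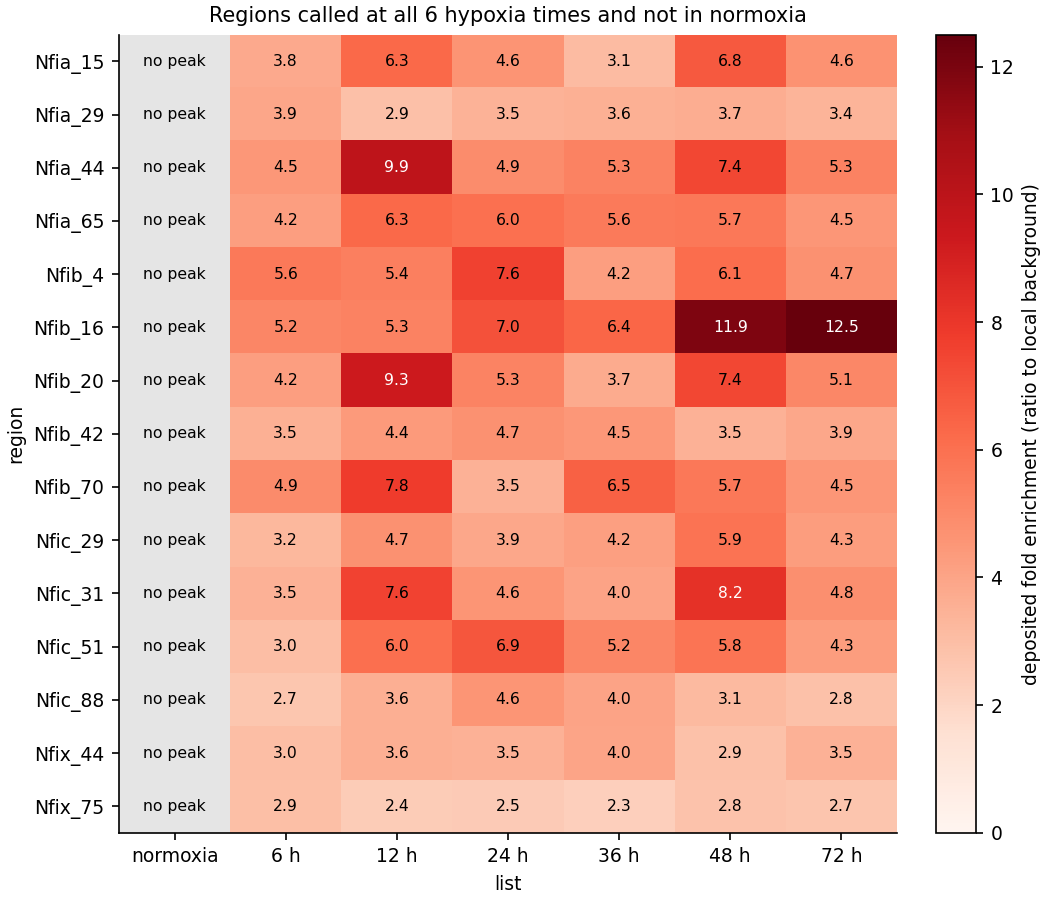
Deposited fold enrichment (colour and number, ratio of summit to local background) of the 15 NFI regions present in every hypoxia list but absent in normoxia (rows) in the 7 lists (columns), with grey for no peak. Nfib_16 reaches 11.9 and 12.5 at 48 and 72 h, and Nfia_44 and Nfib_20 have their highest values, 9.90 and 9.28, at 12 h.

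Each length of hypoxia was then set against normoxia. Regions with a hypoxia peak and no normoxia peak, called gained, made up 17.4% of the NFI regions of the 6 h list (32 of 184, interval 12.2% to 23.7%). In the 5 later lists, by time, they made up 33.2%, 25.8%, 22.4%, 31.0% and 27.1%. Over the genome the shares were 13.7%, 34.3%, 28.5%, 23.7%, 30.3% and 27.6%, each inside the interval of the NFI share, so no difference from the genome was detectable at these counts. All 6 comparisons share the normoxia list and are not independent.

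Regions with a normoxia peak and no hypoxia peak, called lost, made up 22.4% of the 196 normoxia regions at 6 h (16.8% to 28.9%). By time the later lists gave 6.63%, 14.8%, 15.3%, 10.2% and 14.8%, the last with an interval of 10.1% to 20.6%. The genome had 30.0%, 8.98%, 13.9%, 20.3%, 13.0% and 22.7%. The NFI share was the lower one at 5 of the 6 times, and at 6 and 72 h the genome share lay above its interval. All these comparisons reuse the same normoxia regions, and the intervals treat regions as independent although neighbours share a locus. In a 100 kb window the lost share was 27.5% at 6 h and 15.0% at 72 h. With a -log10 q of at least 5, the 20000 strongest peaks or merging within 200 bp it was 19.7%, 20.0% and 21.5% at 6 h. At 72 h these settings gave 13.9%, 20.0% and 13.6%. The median -log10 q of the normoxia regions was 9.35 both at the NFI loci and over the genome, and the part of peak strength in the lost shares was not tested. By gene, the share lost at 72 h was 7.32% at Nfia, 23.1% at Nfib, 15.5% at Nfic and 13.8% at Nfix, with wide intervals such as 1.54% to 19.9% for Nfia and 11.1% to 39.3% for Nfib.

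**Figure D4:**
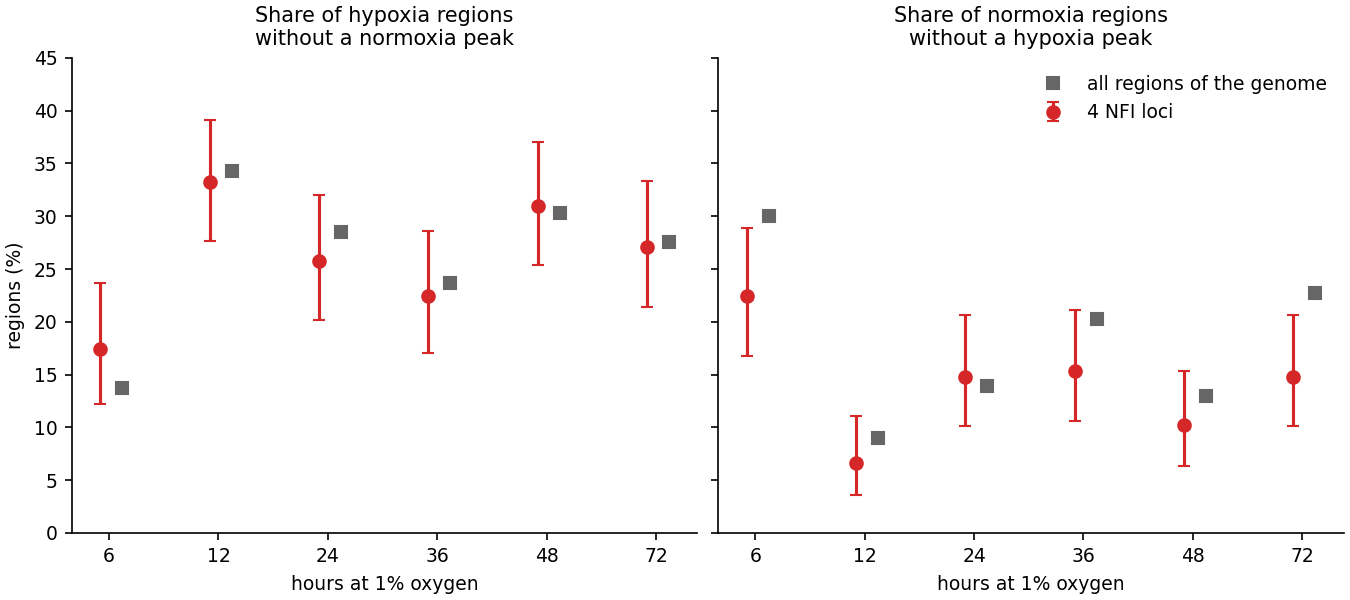
Gained regions as a share of each hypoxia list (left) and lost regions as a share of normoxia (right), in percent, against hours at 1% oxygen, for the 4 NFI loci (red circles with exact 95% binomial intervals) and all regions of the genome (grey squares). The gained shares of the genome lie inside every NFI interval, while the lost shares of the genome at 6 and 72 h, 30.0% and 22.7%, lie above it.

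At the 135 regions found in all 7 lists the signal of the group as a whole stayed near that of all such regions of the genome. Each list was scaled to its median over such regions, so a shift that they all share cannot show. The median of the mean log2 ratio of scaled reads over the 6 hypoxia lists was -0.02, beside -0.04 for the 36113 such regions of the genome. It was 0.14 at Nfia (28 regions), 0.00 at Nfib (26), -0.22 at Nfic (39) and -0.01 at Nfix (42). Nfia and Nfic were farthest apart at 24 h, with medians of 0.32 and -0.48, where 19 of 28 Nfia regions and 6 of 39 Nfic regions were above normoxia. Promoters of other genes made up 44 of the 97 Nfic regions and 4 of the 82 Nfia regions, and the part of this in the gap was not tested.

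A mean log2 ratio of 1 or more was reached by 3 of the 135 regions, against 2.39% of the genome, and -1 or less by 0, against 0.194%. The 3 were Nfic_12 (mean 1.36), Nfia_18 (1.23) and Nfix_20 (1.03). All had 7 reads in normoxia, near the lowest a called peak can have, so their ratios are poorly fixed. Nfia_18 (chr4:97355924-97356657), 83155 bp before the first Nfia start in an intron of E130114P18Rik, had 18, 24, 21, 29, 29 and 29 reads in hypoxia, with a log2 ratio of 1.62 (0.40 to 3.06) at 72 h. Nfic_12 (chr10:80410243-80411711) lay 17938 bp from a start of Gadd45b, a stress response gene, and had 25, 39, 18, 24, 35 and 26 reads in hypoxia. Nfix_20, in an intron of the calcium channel gene Cacna1a, reached 47 reads at 12 h and 11 at 36 h. At the other end, Nfic_82 (chr10:81014199-81014789), 6553 bp from Gna11, a G protein subunit gene, had 43 reads in normoxia and 28 at 24 h, with a log2 ratio of -1.24 (-1.98 to -0.52). The intron region Nfia_37 had the lowest mean at Nfia, -0.73, with -1.17 at 6 h.

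**Figure D5:**
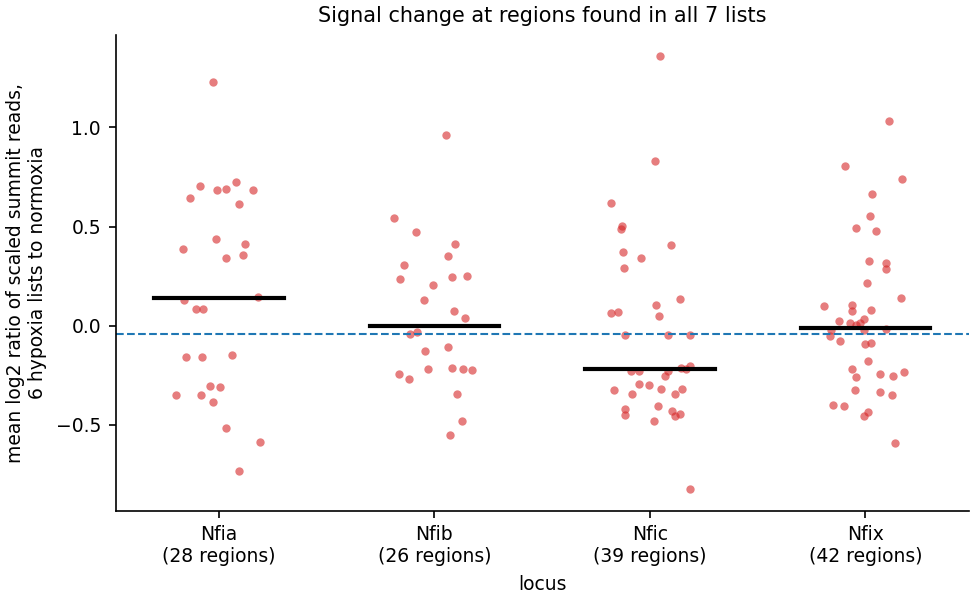
Mean log2 ratio of scaled summit reads of the 6 hypoxia lists to normoxia (y axis) for each of the 135 NFI regions found in all 7 lists (points, spread sideways for sight), by locus (x axis), with the locus median as a black bar and the genome median, -0.04, as a dashed line. The Nfia median, 0.14, lies above the line and that of Nfic, -0.22, below it, with points of every locus on both sides.

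The strong regions shared by all lists lay at mixed distances from coding starts. Nfib_7 (chr4:81571812-81573374), 484138 bp from the nearest coding start, that of Mpdz, had 40 reads in normoxia and 58 to 86 in hypoxia, with log2 ratios of 0.09 to 0.32. Nfib_62 (chr4:82411457-82412512), 60317 bp before the first Nfib start, had a fold enrichment of 12.0 in normoxia and 8.26 to 15.4 in hypoxia. Nfix_94 (chr8:87656156-87656988) had one of 12.8 in normoxia and 11.8 to 16.5 in hypoxia. Nfia_13, in an intron of E130114P18Rik and 16906 bp from a start of that gene, had 32 reads in normoxia, 97 at 12 h and 110 at 48 h. Its log2 ratios were 0.14 to 0.96. In the other direction, the log2 ratios of Nfic_82 above were -0.39 to -1.24, with intervals below 0 from 12 h on.

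Over the 4 loci together, no difference from the genome was detectable in the motif of the family itself. The full palindrome was found within 100 bp of the summit in 0 of 353 regions, which allows a share of up to 1.04%, beside 0.0496% of all regions, and within 250 bp in 0.283%, beside 0.0910%. A single NFI site was searched only as TTGGCA on either strand, so a TTGGC without the final A was not counted. In this form it was in 46 regions (13.0%, interval 9.70% to 17.0%), beside 15.0% of all regions. By gene it was in 13.4% at Nfia, 20.5% at Nfib, 6.19% at Nfic and 13.5% at Nfix, and the interval at Nfic, 2.30% to 13.0%, lay below the genome share. AP-1 sites (TGANTCA) were in 27.2% of the NFI regions beside 37.5% of all regions, with 39.0% at Nfia and 17.7% at Nfix. HIF sites (ACGTG or GCGTG), bound by the hypoxia-inducible factors, were in 33.1% beside 23.6%, with 49.5% at Nfic, 46.9% at Nfix, 14.6% at Nfia and 15.4% at Nfib. Base composition moved with this: the median GC content of the windows was 60.2% at both Nfic and Nfix, 47.8% at Nfia, 46.3% at Nfib and 48.3% over the genome, and its part in the motif shares was not tested. The other motifs, all read on both strands, were in 13.0% of NFI regions for TEAD (GGAATG, 16.5% of all regions), 16.1% for RUNX (TGTGGT, 20.7%), 8.22% for ETS (CCGGAA, 5.07%), 6.52% for the glucocorticoid response element (ACANNNTGT, 7.13%), 0.850% for FOX (TGTTTAC, 3.05%) and 0.850% for GRHL (AACCNGTT, 1.72%).

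Genes that work with NFI were mostly open at their promoters throughout. Of 8 partner genes, 7 were open at the promoter in every list: Nr3c1, the glucocorticoid receptor gene, Stat5a and Stat5b, Pou2f1, Foxa1, Sox9 and Ski. Pgr, the progesterone receptor gene, had one at 6 h alone. Of 10 known NFI target genes 4 had one in all 7 lists, Ezh2, Trp53, Cdkn1a and Col1a2. The 4 milk protein genes Wap, Lalba, Csn2 and Csn1s1 had none in any list. Gfap, an astrocyte gene, had one in normoxia and at 12 and 48 h, and Fabp7, a radial glia gene, at 48 and 72 h. Over all coding genes the share open in all 7 lists was 46.7%.

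The label of a mammary tumor line was checked against markers of epithelium and of other cell types. Epcam, Cdh1, Krt8 and Krt18 were open at the promoter in every list and the fifth epithelial marker, Cldn7, in none. Of 4 immune markers Lyz2 alone had one, at 36 h, and Ptprc, Cd3e and Itgam had none. Of 5 endothelial and fibroblast markers Pdgfra had one in all 7 lists, Col1a1 from 12 h on and Pecam1 at 12, 36 and 48 h, while Cdh5 and Kdr had none.

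Across the 7 lists the promoter values of Nfia were most like those of Nhp2 (Pearson r = 0.993), S100a11 (0.991) and Fndc7 (0.989), and those of Nfib like Ccdc14, Cpsf4 and Ptcd1 (0.989 each), on log2 scaled reads over the same 10393 genes. With 7 points that share their lists such likeness is common: 138 genes had an r over 0.9 with Nfia and 266 with Nfib. Nfic and Nfix lacked a normoxia value and were not compared.

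The lists differ in number of peaks and in background, which touches all counts above. They held 49006 to 81732 peaks, fewest at 6 h and most at 12 h. The genome-wide background, the lowest that the peak statistics gave, was 0.926 reads in normoxia and 1.85 to 3.25 reads in hypoxia. The 6 h list, with the fewest peaks, had the highest background, 3.25 reads. Read totals were not used here, and the part of depth in these differences was not tested. The NFI loci had the fewest regions in the shortest list and the most in the longest, with 196 in normoxia and 184, 274, 225, 214, 255 and 229 from 6 to 72 h.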

How the data were processed

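Peaks of bulk ATAC-seq were analysed for 14 samples in 7 groups, taken from the sample labels. The methods and processing notes state that the authors used Bowtie2 2.1.0 and mm9 for alignment and Picard 1.79 against duplicates, pooled both replicates, and ran MACS2 for peak calls (version not given in the sources used here). Column 7 as deposited is a fold enrichment, the ratio of the summit to its local background in the same pool, and lists were not scaled to each other. The deposited -log10 p-value and -log10 q-value columns describe the same summit. The lowest -log10 q was 1.30 to 1.31, a q of 0.05, which is looser than the threshold in the methods. Weak peaks therefore depend on that setting, and the described filters for mitochondrial-like and excluded regions were not applied here.

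Each distinct interval counted as 1 peak, represented by its summit with the highest -log10 q. Regions were built by merging overlapping or touching peaks. NCBIM37 and its GENCODE annotation gave sequence and genes. Summit reads were the whole number that, with a local background, gave both the fold and the -log10 p within 0.001, and all summits were solved. Promoter presence used the peaks of each list. A first version had used merged regions there, and it was replaced after its values were compared with earlier counts from these data, because it counts a list whose own peak lies outside the 1 kb limit; both versions gave the same pattern for the 4 NFI genes. Shares have exact Clopper-Pearson intervals and reads exact Poisson intervals at 95%, which cover counting error only. Depth per sample is unknown, since the files hold no read totals.

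The members, gene lists and motifs were chosen with earlier results of these data known. Regions were named by rule: all NFI promoter regions, and per gene the 3 strongest in all 7 lists outside other promoters, up to 3 hypoxia-only and 3 normoxia-only regions, those with the largest and smallest mean ratio, the region 433461 bp from Nfib, those at the 500 kb limit and the 3 genes of most similar promoter values. Some regions are given by range only, and 2 genes of the partner and marker lists are not reported here. Code was tested on simulated data. The software was scipy 1.17.1, pandas 2.3.3, numpy 2.4.6 and matplotlib 3.10.9 under Python 3.11.15. Alternatives were a -log10 q of at least 5, the 20000 strongest peaks, merging within 200 bp, a 100 kb window, a 5 kb promoter, other scales and a 250 bp motif window.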

Additional observations from a re-analysis of the deposited data

How the results depend on the processing

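Of 113 alternative values, 73 stayed within 1.5 times a count or inside the interval of a share or median, and 40 did not. With the 20000 strongest peaks of each list, the gained shares of 12, 24 and 48 h became 19.7%, 19.6% and 18.8%, and the lost shares 24.6%, 30.8% and 20.0%. The 4 loci then held 100 regions (24, 21, 26 and 29 from Nfia to Nfix), with 35 in all 7 lists, 1 in hypoxia only and 2 in normoxia alone. A peak missing there can be in the full list. With a -log10 q of 5 or more the lost share at 48 h was 5.84%, the gained share at 72 h 33.7% and the regions in normoxia alone 2. A 100 kb window left 157 regions (46, 42, 27 and 42), with 53 in all 7 lists, 4 in hypoxia only and 3 in normoxia alone, because it covers less DNA.

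Among the 20000 strongest peaks Nfib kept a promoter peak in normoxia alone. NFI genes with a promoter peak in all 7 lists numbered 1 (Nfia) there and 3 at 5 kb, where Nfic was added. Those with one in every hypoxia list but not normoxia numbered 0 at a -log10 q of 5 or more and 0 among the 20000 strongest, and 1 (Nfix) at 5 kb; these 3 settings were applied to this count after seeing the data. Leaving out the 6 h list, also chosen after seeing the data, gave 20 hypoxia-only regions (5.67%, interval 3.49% to 8.61%), and the genome share, 3.60%, then lay inside the interval.

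The median signal ratio depends on the scale. With the deposited fold it was -0.39, 0.08, 0.02 and -0.15 at 6, 12, 24 and 72 h, and over the genome background -1.50, -0.38, -0.53, -0.89, -0.63 and -0.99 from 6 to 72 h. The genome medians shifted alike, to -0.41, 0.07, 0.04 and -0.23, and to -1.55, -0.40, -0.43, -0.88, -0.66 and -1.06. A 250 bp motif window gave single NFI sites in 27.8% of regions, against 28.6% of all regions. No paired analysis was possible because each list pools both replicates, and leaving out a replicate could not be run for the same reason. The part of depth and background in the weak calls was not tested, and no value here has a replicate error.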

Other observations

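The window before Nfic was empty over much of its length. The farthest region before the gene lay 229 kb from it, and the last 271 kb of the window, with 7 protein-coding genes and 0% unknown bases in the assembly, had no peak in any of the 7 lists. The farthest regions before Nfia, Nfib and Nfix lay 499, 478 and 499 kb away. Whether short reads can be placed in that stretch was not tested.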
